A study of Mus musculus with 42 samples.

Results

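The BMP pathway and Id genes described here were 9 genes: the ligands Bmp4 and Bmp7, the inhibitory SMADs Smad6 and Smad7, the Id genes Id1, Id2 and Id3, and the homeobox genes Msx1 and Msx2. Each locus was the mm10 gene body extended by 10 kb on each side, and every peak of the 30 immunoprecipitated libraries that overlapped such a locus was taken. The 9 loci were set against 21938 protein-coding gene loci. Merged within a factor, the 20000 best peaks of each library made 73 SOX2 regions at the 9 loci (of 122617 across the genome), 72 β-catenin regions (of 96109) and 65 LEF1 regions (of 162760).

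Bone morphogenetic proteins are secreted ligands of the TGF-β superfamily that bind paired serine/threonine kinase receptors, which phosphorylate SMAD1, SMAD5 and SMAD9, and these enter the nucleus with SMAD4. SMAD6 and SMAD7 are induced by the pathway and dampen it, so they act as feedback inhibitors. The Id genes are direct SMAD targets whose products bind basic helix-loop-helix factors and keep them off DNA, while MSX1 and MSX2 are homeodomain repressors of the posterior and lateral embryo. In the gastrulating embryo BMP signals meet WNT signals at the posterior end, where β-catenin enters the nucleus and reaches DNA through TCF/LEF proteins such as LEF1, in cells that still express the SOXB1 factor SOX2.

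ChIP–seq was carried out in epiblast-like cells derived in vitro from HM1 mouse embryonic stem cells and fixed at 72 h with a protein crosslinker and then paraformaldehyde. All cells received FGF and the WNT-secretion blocker LGK974 for the whole time. For the last day CHIR99021, a GSK3 inhibitor that activates WNT signalling, was added (CHIR) or not (noCHIR). SOX2, β-catenin and LEF1 were immunoprecipitated with CHIR from WT cells, from CdxKO cells, which lack Cdx1, Cdx2 and Cdx4, and from T/BraKO cells, which lack T/Brachyury, and SOX2 was also immunoprecipitated from WT cells without CHIR, with 3 biological replicates in each of the 10 groups. Each genotype was carried by its own cell line, so line and genotype cannot be told apart, and no transcripts were measured in these files, so loss of the targeted genes could not be checked here.

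The deposited lists differed in length from 26940 to 1008922 peaks. Read depth was not in the lists and is unknown here, so the 20000 best peaks by −log10 q of each list were compared unless stated. The value of the last peak kept still ranged from a −log10 q of 3.26 to 14.1. SOX2 in WT cells with CHIR stood apart: its 3 lists shared on average 0.0886 of their merged peaks (Jaccard index, from 0.0622 to 0.103), against 0.371 for SOX2 without CHIR, 0.244 in CdxKO and 0.218 in T/BraKO. LEF1 lists shared the least, from 0.0233 in T/BraKO to 0.0410 in CdxKO, and β-catenin lists shared from 0.206 in WT to 0.298 in T/BraKO.

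The sequences below show what lay under a selection of the peaks described: a window of 201 bases around the summit (the point of highest signal) of the strongest peak, on the plus strand of GRCm38 (mm10), read from the RefSeq genome. Capitals mark words of 5 motif families on either strand: SOX (CCATTGT or CCTTTGT), TCF/LEF (CTTTGAA or CTTTGAT), CDX (CAATAAA or CCATAAA or TAATAAA or TCATAAA), T-box (AGGTGTGA) and the GC-rich site of BMP-activated SMADs (GGCGCC). The second SOX word shares the letters CTTTG with both TCF/LEF words. A match is a description of the letters, and a window without capitals holds none of these words. No sequence is shown for Smad7.
Bmp4 upstream, β-catenin, chr14:46398574-46398774: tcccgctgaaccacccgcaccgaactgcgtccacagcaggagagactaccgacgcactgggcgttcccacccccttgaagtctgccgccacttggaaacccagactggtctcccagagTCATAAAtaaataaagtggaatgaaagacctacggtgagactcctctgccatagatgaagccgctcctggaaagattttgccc
Bmp7 intron, β-catenin, chr2:172939268-172939468: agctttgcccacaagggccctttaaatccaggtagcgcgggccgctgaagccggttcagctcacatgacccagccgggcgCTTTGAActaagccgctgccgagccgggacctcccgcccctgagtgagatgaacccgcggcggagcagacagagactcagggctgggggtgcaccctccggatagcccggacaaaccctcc
Smad6 intron, SOX2 in 12 of 12 libraries, chr9:63959158-63959358: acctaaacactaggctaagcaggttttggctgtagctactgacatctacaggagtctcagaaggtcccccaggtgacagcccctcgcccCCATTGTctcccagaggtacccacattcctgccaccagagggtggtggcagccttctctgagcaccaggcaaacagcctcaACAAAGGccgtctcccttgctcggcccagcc
Smad6 intron, β-catenin in 9 of 9 libraries, chr9:63958287-63958487: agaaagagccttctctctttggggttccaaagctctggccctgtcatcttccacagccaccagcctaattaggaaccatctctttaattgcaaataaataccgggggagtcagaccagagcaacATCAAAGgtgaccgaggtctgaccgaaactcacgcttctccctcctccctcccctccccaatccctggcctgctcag
Smad6 intron, SOX2 with CHIR, chr9:63973736-63973936: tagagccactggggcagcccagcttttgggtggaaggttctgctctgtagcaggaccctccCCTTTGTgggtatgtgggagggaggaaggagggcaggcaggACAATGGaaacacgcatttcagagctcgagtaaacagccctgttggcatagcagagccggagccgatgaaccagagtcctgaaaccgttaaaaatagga
Smad6 intron, SOX2 without CHIR, chr9:64001768-64001968: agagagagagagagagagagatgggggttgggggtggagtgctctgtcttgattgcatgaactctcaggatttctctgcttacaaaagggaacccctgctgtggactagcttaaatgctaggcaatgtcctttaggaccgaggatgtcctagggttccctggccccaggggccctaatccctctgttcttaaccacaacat
Id1 upstream, SOX2, chr2:152735081-152735281: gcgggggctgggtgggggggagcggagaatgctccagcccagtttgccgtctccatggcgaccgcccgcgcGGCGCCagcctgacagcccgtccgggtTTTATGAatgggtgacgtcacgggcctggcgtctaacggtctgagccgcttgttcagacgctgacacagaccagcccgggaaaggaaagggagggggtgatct
Id2 upstream, β-catenin, chr12:25099312-25099512: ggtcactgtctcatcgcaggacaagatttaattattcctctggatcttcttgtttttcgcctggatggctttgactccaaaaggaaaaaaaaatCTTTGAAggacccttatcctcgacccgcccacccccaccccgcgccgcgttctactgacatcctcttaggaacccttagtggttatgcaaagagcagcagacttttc
Id3 downstream, β-catenin, chr4:136146799-136146999: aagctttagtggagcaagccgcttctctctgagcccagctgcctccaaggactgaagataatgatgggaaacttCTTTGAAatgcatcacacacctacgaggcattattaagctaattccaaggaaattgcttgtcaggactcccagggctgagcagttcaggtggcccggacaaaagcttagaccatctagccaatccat
Msx1 far upstream, SOX2, chr5:37832854-37833054: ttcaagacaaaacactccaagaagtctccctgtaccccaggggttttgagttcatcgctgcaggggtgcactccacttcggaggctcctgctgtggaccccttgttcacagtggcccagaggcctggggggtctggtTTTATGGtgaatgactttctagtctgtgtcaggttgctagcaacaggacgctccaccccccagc
Msx1 near upstream, β-catenin, chr5:37826856-37827056: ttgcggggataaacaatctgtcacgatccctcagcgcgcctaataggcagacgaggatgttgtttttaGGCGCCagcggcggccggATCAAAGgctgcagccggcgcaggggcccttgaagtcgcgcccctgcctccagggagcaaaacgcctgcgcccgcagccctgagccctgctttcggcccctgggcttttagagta
Msx2 upstream, β-catenin, chr13:53475956-53476156: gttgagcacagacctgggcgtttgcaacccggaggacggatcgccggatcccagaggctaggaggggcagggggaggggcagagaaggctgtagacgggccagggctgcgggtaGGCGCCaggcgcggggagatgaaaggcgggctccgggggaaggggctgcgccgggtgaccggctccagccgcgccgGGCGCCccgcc

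These windows differed in which words they held. The Smad6 intron windows of SOX2 in all libraries and of SOX2 with CHIR held 2 SOX words each, whereas the windows of the Smad6 intron without CHIR and of the far upstream Msx1 site held no SOX word. The β-catenin windows of Bmp7, Smad6, Id2, Id3 and near upstream Msx1 each held a TCF/LEF word. GGCGCC stood in the windows of Id1 and near upstream Msx1 and in 2 places upstream of Msx2. The windows of Bmp7 and Msx2 are from regions in 9 of 9 libraries that were not the leading ones, and the leading β-catenin windows of both genes, 2478 bp and 10557 bp from the gene start, held none of the words.

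At the median gene of the 9, peaks were denser than at the median gene locus for all 3 factors. The median over the 9 genes of the mean number of peaks per library was 2.25 (SOX2), 3.22 (β-catenin) and 1 (LEF1), against 0.417, 0.333 and 0.444 over all 21938 loci. Per 100 kb the medians were 4.40, 6.66 and 2.46 peaks at the 9 loci and 0.760, 0.657 and 0.913 at all loci. Msx1 was the densest of the 9 for each factor, with 12.8 SOX2, 20.3 β-catenin and 7.38 LEF1 peaks per 100 kb, and 99.9% of all loci had fewer β-catenin peaks per 100 kb. Id3 followed for β-catenin with 14.98 and Id1 for SOX2 with 10.2, whereas Bmp4 was the sparsest for both SOX2, at 1.23, and β-catenin, at 2.05. The windows of Bmp4, Bmp7, Id1, Id3 and Smad7 also held other annotated genes, of which Gm15217 at Bmp4 is protein-coding, so a peak there is near its gene by distance alone.

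**Figure D1:**
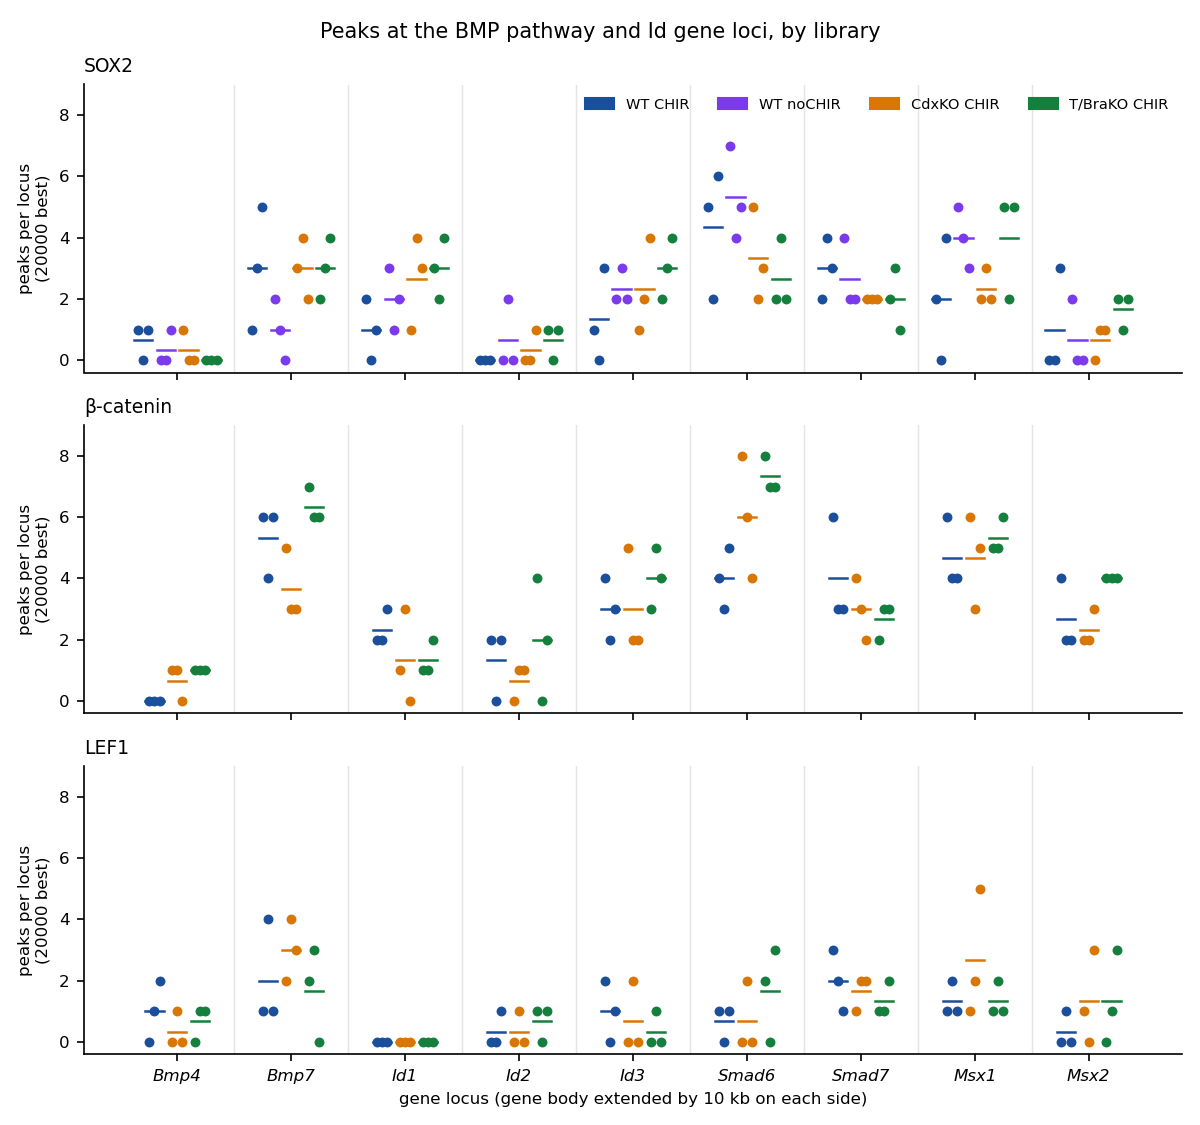
Number of peaks among the 20000 best of each library (vertical axis) at each of the 9 loci (horizontal axis), for SOX2, β-catenin and LEF1; each point is a library, replicates 1 to 3 from left to right, and the bar is the group mean. β-catenin at Smad6 lay at 7 or 8 peaks in T/BraKO and at 3 to 5 in WT, and LEF1 lay at 0 at Id1 in all 9 libraries.

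Bmp4, the BMP ligand of the extraembryonic and posterior embryo, carried few peaks. SOX2 peaks at Bmp4 numbered 1, 0 and 1 in WT with CHIR (replicates 1, 2 and 3), 0, 0 and 1 without CHIR, 1, 0 and 0 in CdxKO and 0, 0 and 0 in T/BraKO, and no SOX2 region there was found in more than 1 library. β-catenin peaks numbered 0, 0 and 0 in WT, 1, 1 and 0 in CdxKO and 1, 1 and 1 in T/BraKO. The β-catenin region with most libraries lay 8005 bp upstream of the gene start (chr14:46398400-46398861) and was among the 20000 best in the 3 T/BraKO libraries alone. The leading LEF1 region lay in coding exon sequence 6624 bp from the gene start and was called in 2 of 9 libraries.

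Bmp7, a ligand expressed widely in the early embryo, carried 5.11 β-catenin peaks per library on average, 2.50 for SOX2 and 2.22 for LEF1. Of its 10 β-catenin regions, 6 were called in 1 library and 2 in 9 of 9 libraries, both in introns, 2478 bp and 953 bp from the gene start. The fold enrichment given by the peak caller (signal at the summit over local background) at the 2478 bp region was 15.3, 10.3 and 10.52 in WT, 7.56, 12.9 and 6.09 in CdxKO and 20.2, 17.3 and 15.8 in T/BraKO. WT and CdxKO overlapped there. The deposited T/BraKO values were the highest, but after each library was centred on its median WT and T/BraKO overlapped (log2 difference −0.40, limma adjusted p = 0.745), where the median of all β-catenin regions had differed by −0.21 (WT minus T/BraKO, log2) before centring. SOX2 led 382 bp upstream of the start (chr2:172940342-172941360), in 10 of 12 libraries. There its fold enrichment was 12.3, 8.50 and 11.3 in WT with CHIR and 9.80, 4.40 and 6.88 without, so the deposited ranges overlapped. After each library was centred on its median, the values with CHIR lay above those without, with no overlap (log2 difference 1.11, limma adjusted p = 0.0701). LEF1 peaks were scattered over 19 regions at Bmp7, of which 18 were in 1 library.

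Smad6, which blocks receptor-activated SMADs, was bound at both ends of its long gene body. A SOX2 region 62801 bp into the gene (chr9:63958768-63959489) was among the 20000 best in 12 of 12 libraries. Its fold enrichment was 10.6, 6.63 and 24.5 in WT with CHIR, 23.6, 17.6 and 17.0 without CHIR, 7.32, 23.8 and 10.0 in CdxKO and 8.24, 14.9 and 8.75 in T/BraKO. The range without CHIR lay above that of T/BraKO, and the other ranges overlapped. Next to it, 63672 bp into the gene, β-catenin was called in 9 of 9 libraries at 11.3, 10.8 and 21.2 in WT, 13.1, 8.87 and 6.16 in CdxKO and 18.6, 16.5 and 23.2 in T/BraKO. The leading LEF1 region of the gene, at 63591 bp, lay under the same β-catenin region and was called in 2 of 9 libraries. Near the gene start SOX2 and β-catenin again had regions whose summits were 47 bp and 11 bp into the gene, in 8 of 12 and 6 of 9 libraries.

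Smad7, the general inhibitory SMAD, carried a SOX2 region in an intron (chr18:75370561-75371257, 3209 bp into the gene) in 12 of 12 libraries, with a fold enrichment of 15.2, 6.62 and 9.29 in WT with CHIR, 8.17, 7.69 and 6.87 without CHIR, 10.4, 10.8 and 6.83 in CdxKO and 14.3, 13.7 and 9.96 in T/BraKO. β-catenin led 6652 bp into the gene, in 9 of 9 libraries, at 6.998, 15.7 and 16.4 in WT, 13.5, 6.98 and 17.8 in CdxKO and 9.10, 11.1 and 14.01 in T/BraKO. LEF1 led at 6611 bp, inside that β-catenin region, in 6 of 9 libraries. It was called in every full list of LEF1, at 10.7, 6.96 and 6.94 in WT, 20.6, 9.89 and 12.004 in CdxKO and 7.32, 6.69 and 9.44 in T/BraKO. A SOX2 region 6527 bp upstream of the start was called in 9 of 12 libraries: all WT libraries with and without CHIR, 1 of CdxKO and 2 of T/BraKO.

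**Figure D2:**
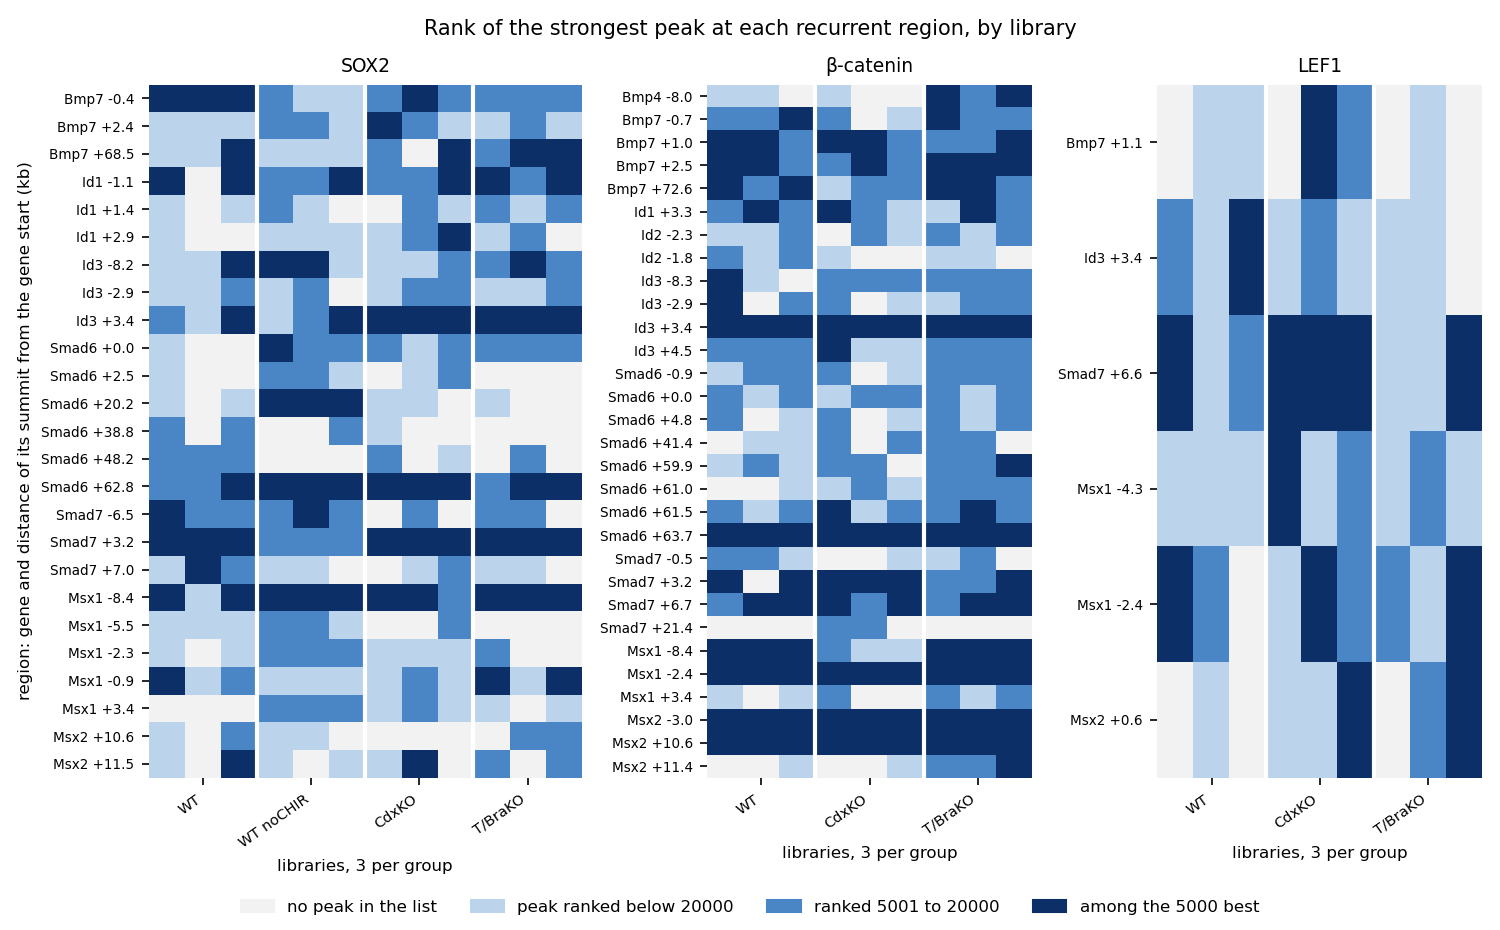
Regions with a peak among the 20000 best of 2 or 3 libraries of the same group (rows, named by gene and distance of the summit from the gene start in kb, positive into the gene) in each library (columns, replicates 1 to 3 within a group); colour gives the rank of the strongest peak in that library's list. β-catenin at Id3 (3.4 kb), Smad6 (63.7 kb), Msx1 (2.4 kb upstream) and both Msx2 sites called in 9 of 9 libraries was among the 5000 best in each of them.

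Among the Id genes Id1 and Id3 had higher mean numbers of SOX2 and β-catenin peaks per library than Id2, whereas LEF1 had none at Id1. At Id1 the leading SOX2 region lay 1070 bp upstream (chr2:152734841-152735524) and was called in 11 of 12 libraries. Its fold enrichment was 12.6 and 9.29 in WT with CHIR replicates 1 and 3, 9.78, 11.9 and 13.5 without CHIR, 7.40, 8.41 and 18.04 in CdxKO and 13.3, 7.94 and 9.17 in T/BraKO. Replicate 2 of WT with CHIR had no peak there in its full list of 289925 peaks. The leading β-catenin region of Id1 lay 3307 bp downstream of the start, beyond the gene end, at 7.91, 9.55 and 9.71 in WT, 10.2, 6.89 and 5.07 in CdxKO and 3.01, 9.03 and 5.67 in T/BraKO. LEF1 had no peak among the 20000 best at Id1 in 9 of 9 libraries. In the full LEF1 lists the locus held from 1 to 10 peaks.

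Id3 carried the site that all 3 factors shared most fully among the Id genes, downstream of the gene. The summits lay at 3390 bp for SOX2, 3402 bp for β-catenin and 3443 bp for LEF1 from the gene start, and the regions were called in 10 of 12, 9 of 9 and 3 of 9 libraries. β-catenin fold enrichment there was 14.1, 32.1 and 29.5 in WT, 22.0, 21.1 and 18.6 in CdxKO and 32.1, 27.8 and 22.3 in T/BraKO. SOX2 values were 10.4, 5.31 and 13.0 in WT with CHIR, 4.17, 12.3 and 20.97 without CHIR, 17.0, 21.4 and 25.0 in CdxKO and 9.08, 16.5 and 20.2 in T/BraKO. The SOX2 values in CdxKO were above all 3 of WT with CHIR, while the other groups overlapped with them. At Id2 the leading SOX2 region, 1800 bp upstream, was called in 2 of 12 libraries, the leading β-catenin region, 2272 bp upstream, in 4 of 9, and every LEF1 region in 1 of 9.

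Msx1 held the β-catenin site with the highest fold enrichment of the 9 loci. A region of 4150 bp upstream of the gene (chr5:37825412-37829561, summit at 2373 bp) was called in 9 of 9 libraries, at 58.2, 52.7 and 30.2 in WT, 54.6, 46.5 and 51.5 in CdxKO and 85.3, 69.7 and 62.8 in T/BraKO. The deposited T/BraKO values were the highest, but after each library was centred on its median WT and T/BraKO overlapped (log2 difference −0.49, limma adjusted p = 0.678). LEF1 led at 2367 bp upstream, inside this region, in 6 of 9 libraries. Further upstream, at 8371 bp for SOX2 (chr5:37832485-37833345) and 8357 bp for β-catenin, lay a second site, called in 11 of 12 and 7 of 9 libraries. Msx2 carried β-catenin at 2982 bp upstream (22.8, 15.6 and 27.6 in WT, 25.3, 8.06 and 11.3 in CdxKO, 28.7, 34.4 and 19.9 in T/BraKO) and at 10557 bp downstream of its start (27.0, 15.8 and 24.1, then 16.6, 20.2 and 22.0, then 27.6, 31.2 and 21.5), both in 9 of 9 libraries. SOX2 led at Msx2 in 4 of 12 libraries, 11500 bp downstream of the start, and LEF1 in a coding exon in 3 of 9 libraries.

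**Figure D3:**
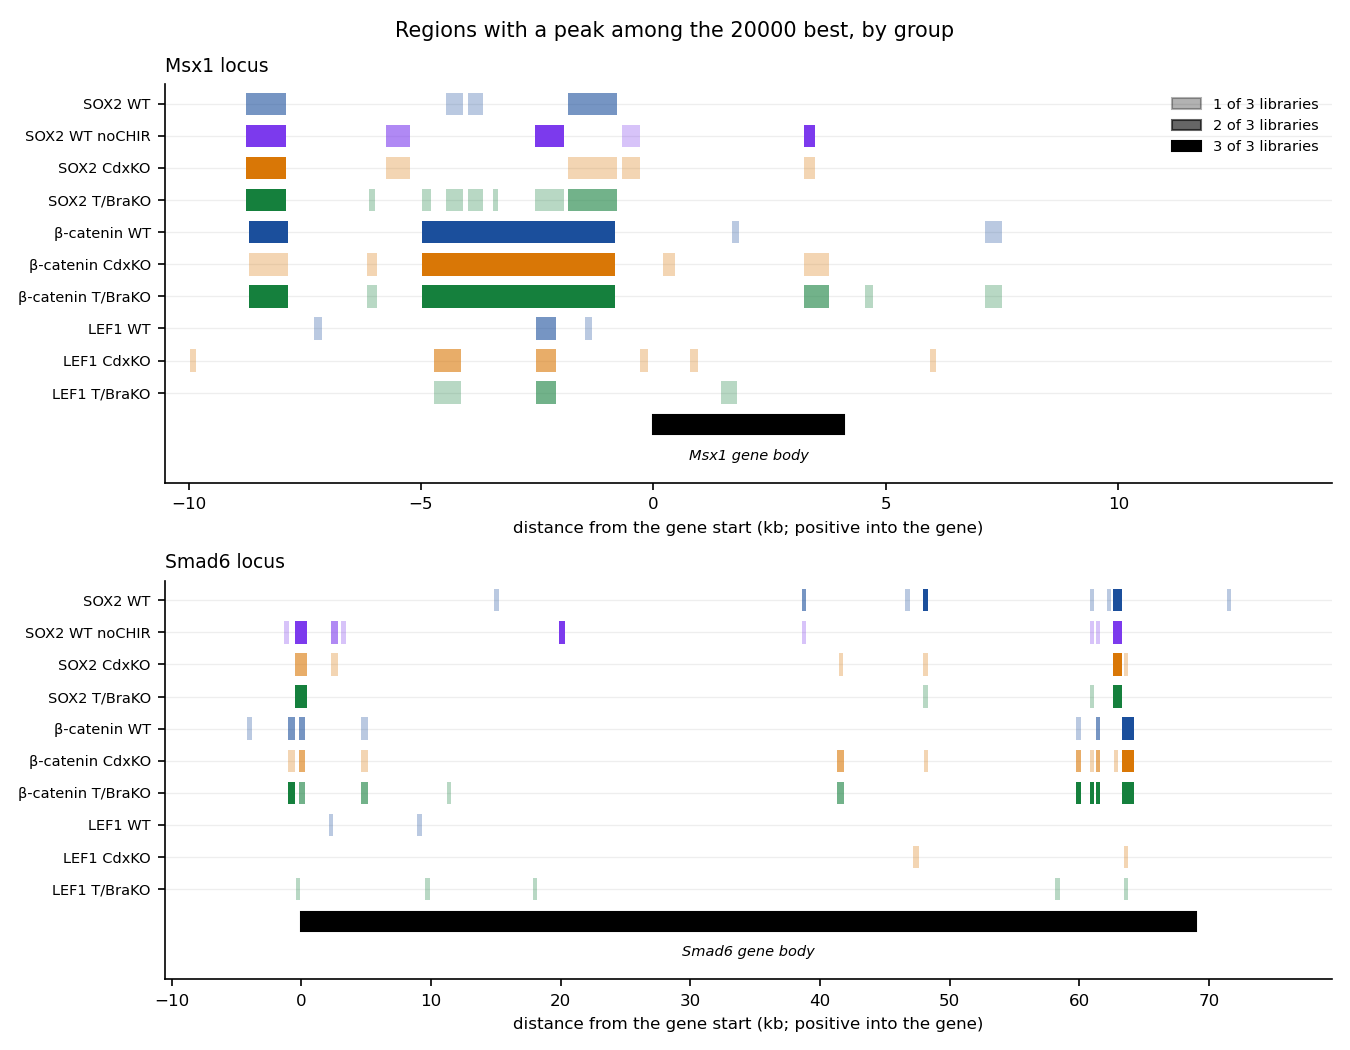
Regions with a peak among the 20000 best at Msx1 and Smad6, drawn to scale by distance from the gene start in kb (horizontal axis) for each of the 10 groups (rows); the shade gives the number of the 3 libraries of the group with a peak, and the black bar is the gene body. SOX2 without CHIR has regions in 3 of 3 libraries near 20 kb of Smad6 and near 2.3 kb upstream of Msx1 where SOX2 with CHIR in WT has none.

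The regions recurred between libraries more often at the 9 loci than over the genome. A region was called recurrent when 2 or 3 libraries of the same group had it among their 20000 best. Recurrent were 25 of 73 SOX2 regions (34.2%), 30 of 72 β-catenin regions (41.7%) and 6 of 65 LEF1 regions (9.23%), against 17.7%, 17.8% and 2.57% of all regions. Of the SOX2 recurrent regions 9 were in introns, 9 upstream, 5 downstream and 2 in UTRs, and 4 had a summit within 1 kb of an annotated transcript start. With CHIR, 14 of 20 recurrent SOX2 regions at the 9 loci overlapped a recurrent β-catenin region (70.0%, against 45.0% over the genome) and 16 of 30 β-catenin regions overlapped a SOX2 region (53.3%, against 41.4%). LEF1 overlapped 4 of the 30 β-catenin regions (13.3%, against 17.7%). These shares are descriptions, since the regions of a locus are not independent.

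Within 100 bp of the summit the SMAD word GGCGCC was found in 10 of 30 recurrent β-catenin regions at the 9 loci (33.3%) and in 3.72% of the 17072 recurrent β-catenin regions of the genome. For SOX2 the shares were 4 of 25 (16.0%) and 4.12%, and for LEF1 1 of 6 (16.7%) and 2.27%. The SOX2 words at Id3, Smad7 and Msx1 and the LEF1 word at Msx1 were the same bases already counted for β-catenin, and the SOX2 word at Id1 was not. The β-catenin regions with the word were at Id1, Id2, Id3, Smad6, Smad7, Msx1 and Msx2, and those of Bmp4 and Bmp7 had none. Base composition moved with this: the median GC content of the windows was 58.0% at the 9 loci and 49.8% over the genome for β-catenin, 56.2% and 49.3% for SOX2, and its part in the difference was not tested. A TCF/LEF word was found in 11 of 30 β-catenin regions (36.7%, against 39.7%) and in 4 of 6 LEF1 regions (66.7%, against 56.1%). SOX words were found in 5 of 25 SOX2 regions (20.0%, against 30.5%) and in 0 of 30 β-catenin regions, against 14.7%. CDX words were found in 5 of 25 SOX2 regions (20.0%, against 10.6%) and 4 of 30 β-catenin regions (13.3%, against 13.0%), and the T-box word in 1 of 30 β-catenin regions, in a Smad6 intron, against 1.79%.

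**Figure D4:**
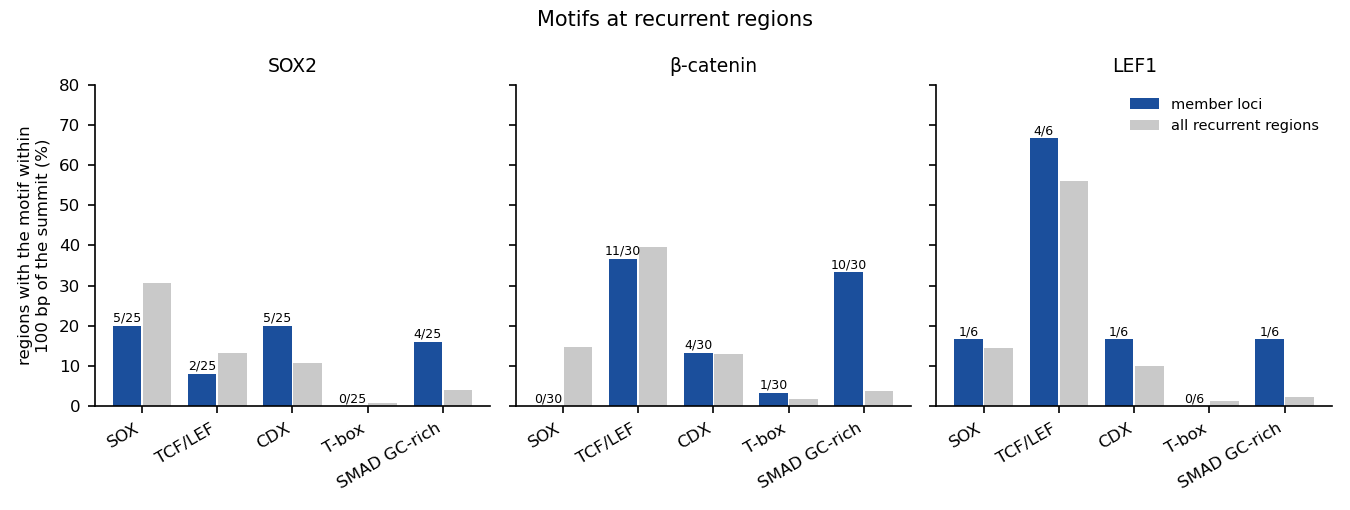
Share of recurrent regions with each motif within 100 bp of the summit (vertical axis, percent) for each factor, at the 9 loci (blue, with the number of regions) and over the genome (grey). GGCGCC was found in 10 of 30 β-catenin regions at the 9 loci and in 3.72% over the genome.

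WNT activation was the first comparison: SOX2 in WT cells with and without CHIR. SOX2 was lower with CHIR at the far upstream Msx1 site. There its fold enrichment was 17.99, 6.37 and 11.2 with CHIR and 46.1, 51.4 and 34.6 without, and the groups did not overlap. In CdxKO it was 10.6, 11.6 and 7.11 and in T/BraKO 20.7, 13.4 and 13.6, so that all 9 libraries with CHIR lay between 6.37 and 20.7. Mean fold enrichment was 11.8 ± 5.84 with CHIR and 44.0 ± 8.58 without (SD, n = 3 each). After each library was centred on its median, the difference was −1.55 on the log2 scale (SE 0.41, adjusted p = 0.00793, limma with Benjamini-Hochberg adjustment over 4787 regions). Without replicate 2 of WT with CHIR, whose value was the lowest, the difference was −1.32 and its limma adjusted p was 0.0579.

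This test covered the 8 SOX2 regions at 5 of the 9 loci (Bmp7, Id3, Smad6, Smad7 and Msx1) that had a peak in the full list of every SOX2 library. It called 1 of them, against 10.2% of all 4787 regions (6.25% lower with CHIR). Leaving out replicate 2 of WT with CHIR gave 0 called regions and leaving out replicate 3 gave 2, with no share of all regions computed for either. Of the 8 regions, 4 had an unadjusted limma p under 0.05, against 24.2% of all regions, and 3 of the 4 were higher with CHIR. Those 3 were not called. They were the Bmp7 region upstream of the start (log2 difference 1.11, limma adjusted p = 0.0701), the Msx1 region 862 bp upstream (1.13, limma adjusted p = 0.0652) and the Smad7 intron region at 3209 bp (0.82, limma adjusted p = 0.192). Before centring, the median region was lower with CHIR by a log2 difference of −0.39.

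By presence in the lists, 54 regions at the 9 loci had a peak among the 20000 best of either group. Of these, 4 were in 3 of 3 libraries without CHIR and in 0 of 3 with CHIR, and 1 showed the reverse. Over the genome 4.03% of 76008 regions showed either pattern, 3.89% the first and 0.146% the second. The region specific to noCHIR lists with the highest fold enrichment lay in a Smad6 intron, 20191 bp into the gene (chr9:64001745-64002167), at 31.4, 16.6 and 21.7 without CHIR. With CHIR it was 4.91 and 4.57 in replicates 1 and 3 and had no peak in the full list of replicate 2. In CdxKO and T/BraKO it was at most 4.92 where a peak was listed. The second lay over the Smad6 start (chr9:64021615-64022524), at 15.9, 11.6 and 6.96 without CHIR and 4.22 in 1 library with CHIR, and SOX2 was present there among the 20000 best in 2 CdxKO and 3 T/BraKO libraries. At Msx1 a region over a UTR at 3380 bp (chr5:37821104-37821337) gave 10.9, 9.13 and 7.15 without CHIR and no peak in the 3 full lists with CHIR, and a region 2317 bp upstream (chr5:37826511-37827136) gave 7.76, 8.03 and 7.58 without CHIR, and 3.79 and 3.61 in replicates 1 and 3 with CHIR. The reverse pattern was found in another Smad6 intron position, 48223 bp into the gene (chr9:63973714-63974116), at 8.54, 7.44 and 6.88 with CHIR and no peak in the 3 full lists without CHIR, and SOX2 was called there among the 20000 best in 1 CdxKO and 1 T/BraKO library. Without replicate 2 of WT with CHIR the number of regions with either pattern was 6, and without replicate 3 of noCHIR it was 8. The share of all regions was not computed for these 2 counts.

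**Figure D5:**
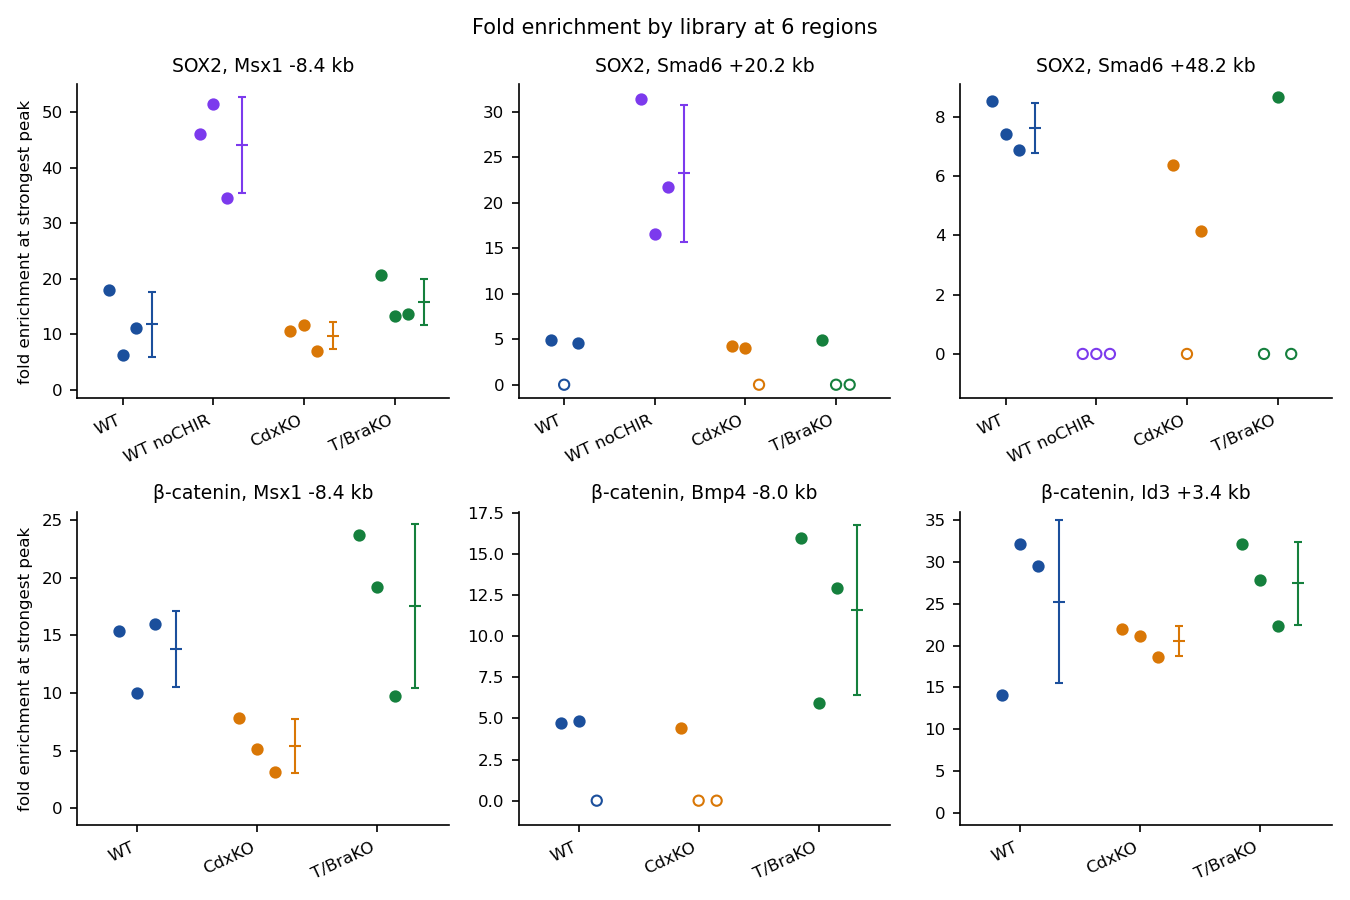
Fold enrichment at the strongest peak of 6 regions (vertical axis) by group (horizontal axis); filled points are libraries, replicates 1 to 3 from left to right, open points at 0 are libraries with no peak in the full list, and the bar is mean ± SD where all 3 libraries had a peak. SOX2 at the far upstream Msx1 site lay between 34.6 and 51.4 without CHIR and between 6.37 and 20.7 in the 9 libraries with CHIR.

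Counted per locus, the numbers of SOX2 peaks with and without CHIR overlapped at all 9 loci, where 6.05% of the 16669 loci with a peak did not overlap. Smad6, for example, had 5, 2 and 6 peaks with CHIR and 7, 4 and 5 without, and Msx1 had 2, 0 and 4 against 5, 4 and 3. In the full lists the number of peaks at Bmp7 was 48, 24 and 20 with CHIR and 7, 5 and 14 without, at Smad7 28, 16 and 12 against 9, 7 and 10 and at Msx2 24, 9 and 13 against 7, 6 and 7, each higher with CHIR with no overlap. In the full lists 33.5% of all 21530 loci with a peak did not overlap and all of these were higher with CHIR, a share near that of the 9 loci. The length of the lists moved with this, at 1008922, 289925 and 205833 peaks with CHIR and 88643, 81239 and 201773 without, and its part in the difference was not tested.

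The CdxKO comparison for SOX2 separated no locus. Peak numbers in WT with CHIR and CdxKO overlapped at all 9 loci (background 3.89% of loci) and no region was present in 3 of 3 libraries of the one group and 0 of 3 of the other (background 1.01% of regions). None of the 8 regions was called by limma (background 0.272%). An unadjusted limma p under 0.05 was found at 9.9% of all regions and at 1 of the 8, the Id3 downstream region. Its mean fold enrichment was 9.57 in WT and 21.1 in CdxKO (log2 difference −0.92, SE 0.45, limma adjusted p = 0.499). Loss of T/Brachyury gave 0 loci without overlap (background 3.35%) and 0 regions called by limma (background 0%). An unadjusted limma p under 0.05 was found there at 1 of 8 regions, against 6.77% of all regions. The region over the Smad6 start, named above, was present in 3 of 3 T/BraKO libraries, at 6.89, 7.09 and 7.93, and in 0 of 3 WT libraries with CHIR, where 1 full list held a peak of 4.22. It was the only one of the 50 regions at the 9 loci with either pattern in this comparison (background 0.763%, or 0.719% in the T/BraKO direction). Without replicate 2 of WT with CHIR, 2 loci and 2 regions separated from T/BraKO and 1 region from CdxKO. With fewer libraries separation is easier to meet, and the share of all loci or regions was not computed for these counts.

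For β-catenin the T/BraKO comparison was the one in which loci separated. Bmp4 had 0, 0 and 0 peaks in WT and 1, 1 and 1 in T/BraKO, and Smad6 had 4, 3 and 5 in WT and 8, 7 and 7 in T/BraKO. Both were lower in WT with no overlap, with a two-sided exact permutation p = 0.1 each, the smallest that 3 against 3 libraries allow. Of the 15842 loci with a peak, 3.65% did not overlap and 1.73% were lower in WT. In the full lists neither locus stayed apart: Bmp4 had 1, 3 and 16 peaks in WT and 6, 1 and 2 in T/BraKO, Smad6 8, 15 and 29 and 17, 10 and 10, where the WT lists held 40067, 108507 and 469083 peaks.

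Of the 60 regions at the 9 loci, 3 were present in 3 of 3 T/BraKO and 0 of 3 WT libraries. None showed the other way (background 1.42%, or 0.815% in the T/BraKO direction). The first was the Bmp4 upstream region, at 15.9, 5.92 and 12.9 in T/BraKO and 4.72 and 4.86 in WT replicates 1 and 2. The second was a Smad6 intron region 61001 bp into the gene (chr9:63960941-63961179), at 10.6, 6.58 and 5.73 in T/BraKO and 4.45 in WT replicate 3. The third lay 11450 bp downstream of the Msx2 start (chr13:53461342-53461998), at 7.23, 4.81 and 10.7 in T/BraKO and 4.38 in WT replicate 3. Each of the 3 thus had a weaker peak in at least 1 full WT list. In the full lists the Msx2 region merged with a neighbouring site (chr13:53461342-53462854). At its strongest peak the merged region had a mean of 22.3 in WT and 26.8 in T/BraKO (log2 difference −0.10, limma adjusted p = 0.946). Of the 14 regions at 7 loci that limma could test, 0 were called between WT and T/BraKO (background 5.08%). An unadjusted limma p under 0.05 was found at 14.8% of all regions and at 1 of the 14. That region was the one downstream of Id1, with a mean of 9.06 in WT and 5.90 in T/BraKO (log2 difference 0.93, limma adjusted p = 0.314). The median log2 difference over the 14 was −0.0021, against −0.035 over all regions.

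In CdxKO, β-catenin peak numbers overlapped with those of WT at all 9 loci (background 2.89%), and no region was present in 3 of 3 against 0 of 3 libraries (background 0.829%). Leaving out any 1 library gave from 1 to 3 regions, for which the share of all regions was not computed. Limma called 0 of 14 regions (background 0.635%). An unadjusted limma p under 0.05 was found at 10.2% of all regions and at 2 of the 14. These were the far upstream Msx1 site, at 15.3, 9.99 and 16.0 in WT and 7.86, 5.17 and 3.14 in CdxKO (log2 difference 1.35, SE 0.41, limma adjusted p = 0.152), and a region beyond the end of Bmp7 (chr2:172867211-172868028), at 19.3, 6.51 and 19.3 in WT and 3.51, 4.99 and 7.05 in CdxKO (log2 difference 1.35, SE 0.43, limma adjusted p = 0.180). At the Msx1 site the groups did not overlap, and T/BraKO gave 23.7, 19.2 and 9.76. The 14 differences had a median of 0.28, with 12 above 0, and the median over all regions was −0.052. The 14 regions share loci and libraries, so this count is a description.

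LEF1 gave few recurrent peaks at these genes, and no separation by peak number or by presence in the lists. Numbers of peaks overlapped at all 9 loci between WT and CdxKO (background 2.78%) and between WT and T/BraKO (background 2.87%). No region was present in 3 of 3 against 0 of 3 libraries in either comparison (background 0.133% and 0.121%). Only 2 regions had a peak in every full LEF1 list, at Smad7 and at Msx1 (chr5:37828527-37829611, not the leading LEF1 region there). Limma called 0 of 2 in both comparisons (background 0% and 0.455%). An unadjusted limma p under 0.05 was found at 0 of 2 in both, against 6.73% and 7.27% of all regions. The Msx1 region stood at 4.74, 4.44 and 3.59 in WT, 12.7, 5.49 and 6.65 in CdxKO and 7.32, 9.03 and 4.60 in T/BraKO. As deposited, WT lay below CdxKO without overlap and overlapped with T/BraKO. After centring, WT overlapped with CdxKO and lay below T/BraKO without overlap (limma adjusted p = 0.855 and 0.797).

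The rest of the pathway was counted from a list of 32 genes. With and without CHIR, SOX2 peaks did not overlap at 1 of 32, the target Dlx5 (1, 1 and 1 with CHIR, 2, 4 and 2 without), in a comparison where 6.05% of all loci did not overlap. Of 115 regions at the 32 genes, 3 were in 3 of 3 libraries without CHIR and 0 of 3 with CHIR, a share not above the 3.89% of all regions, and they lay at Dlx5, at the receptor gene Acvr1 and at Smurf1, which encodes a ubiquitin ligase of SMADs. SOX2 in WT was lower than in CdxKO at the ligand gene Gdf6 (0, 0 and 0 against 2, 1 and 1) and at the receptor gene Bmpr1a (0, 0 and 0 against 1, 1 and 1), with none higher. Against T/BraKO it was higher at Bmpr1b (4, 4 and 4 against 2, 2 and 2) and lower at Acvr1 (2, 2 and 1 against 3, 4 and 4) and Dlx5 (1, 1 and 1 against 2, 6 and 3). Regions with the pattern of 3 of 3 against 0 of 3 were 1 of 138 against CdxKO, at Gdf6 in CdxKO, and 1 of 137 against T/BraKO, at Dlx5 in T/BraKO (background in either direction 1.01% and 0.763%).

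β-catenin in WT was higher than in CdxKO at Smurf2 (4, 2 and 2 against 1, 1 and 1) and lower at Bmpr1b (1, 1 and 2 against 3, 4 and 5) and Smad1 (0, 0 and 0 against 1, 1 and 1). Against T/BraKO it was lower at Bmpr1b (3, 8 and 5 in T/BraKO) and at Tbx20, a cardiac T-box gene (1, 1 and 1 against 2, 2 and 3), and 2 of 128 regions were in 3 of 3 T/BraKO and 0 of 3 WT libraries, at Tbx20 and at the BMP antagonist gene Nog (background 0.815%). LEF1 in WT was higher than in CdxKO at Acvr1 (4, 5 and 3 against 1, 2 and 2) and Smurf1 (2, 2 and 2 against 1, 0 and 0), with 1 of 171 regions in 3 of 3 WT and 0 of 3 CdxKO libraries, at Acvr1 (background in either direction 0.133%), and against T/BraKO it was higher at Smurf1 (1, 0 and 1 in T/BraKO) and lower at Smad5 (0, 0 and 0 against 1, 2 and 1). Each comparison thus separated from 1 to 3 of the 32 loci, of which 0 to 4 had no peak in its libraries. The count was 1 with against without CHIR, where 6.05% of all loci did not overlap. It was 2 or 3 in each genotype comparison, where 2.78% to 3.89% of all loci did not overlap. In the genotype comparisons the share lay above that of all loci, on 2 or 3 loci each, and this was not tested. Nothing particular to the pathway is read from these counts. The exact permutation p of a locus that separates 3 from 3 libraries is 0.1. Limma tested 8 SOX2 regions at 7 of these genes, 13 β-catenin regions at 10 and 1 LEF1 region. It called 1 of them, a SOX2 region higher with CHIR. In that comparison 10.2% of all 4787 SOX2 regions were called, 189 regions being higher with CHIR. The 3 comparisons of SOX2 use the same WT libraries with CHIR, and both comparisons of β-catenin and of LEF1 share their WT libraries.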

How the data were processed

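Peaks came from ChIP–seq libraries of 42 samples, of which 30 were immunoprecipitations analysed here and 12 were inputs, not analysed here. Per the labels and the study's methods, the authors aligned single-end reads to mm10 with BWA in an nf-core pipeline, filtered them and called narrow peaks with MACS2 in each library, without pooling replicates. The sources used here do not say which input served as the control of each library. In the deposited lists each peak has a fold enrichment (a ratio of the signal at the summit over local background), a −log10 p-value and −log10 q-value, a display score that was not used, and the offset of the summit. Read counts were not used here, so the depth of each library is unknown and the count-based test of the study could not be repeated.

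Here peaks were ranked by −log10 q and the 20000 best of each list kept. Loci were GENCODE gene bodies extended by 10 kb. Peaks overlapping by 1 bp were merged into regions within a factor. The groups were compared by the number of peaks per locus (two-sided exact permutation test over 20 assignments), by presence in 3 of 3 against 0 of 3 libraries, and by limma 3.58.1 (R 4.3.3) on log2 fold enrichment, without pseudocount, at regions with a peak in every full list of the factor, centred on the median of each library, with a threshold of 0.05 on the adjusted p. Because regions lacking a peak in any list could not enter limma, that test does not cover complete losses. The limma and motif steps were tested on simulated data. All 9 genes were described, with the leading region of each factor at each locus (most libraries, then best mean rank), every region in 3 of 3 against 0 of 3 libraries, and 32 further pathway genes as counts. Members and lists were chosen with earlier results of these data known. Alternatives were the full lists, the 5000 best peaks, other flanks, summits chained within 150 bp, other scalings, a −log10 q of at least 3, a replicate block and leaving out each library. Python 3.11.15 with pandas 2.3.3, SciPy 1.17.1 and pysam 0.24.0 was used. The labels call the replicates biological.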

Additional observations from a re-analysis of the deposited data

How the results depend on the processing

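The number of the 9 loci that did not overlap changed with the list. With the full lists it was 3 for SOX2 with against without CHIR (0 with the 20000 best), 2 for SOX2 WT against CdxKO (0), 1 against T/BraKO (0), 1 for β-catenin WT against CdxKO (0), 0 against T/BraKO (2), and 1 for LEF1 WT against CdxKO (0). In the same order, 33.5%, 28.6%, 18.8%, 1.54%, 1.79% and 2.33% of all loci did not overlap in the full lists. With the 5000 best peaks it was 2 for SOX2 with against without CHIR, 1 for β-catenin against CdxKO and 0 against T/BraKO (6.52%, 3.80% and 5.25% of all loci). With 50 kb on each side it was 1 for each SOX2 comparison, 1 for β-catenin against T/BraKO and 1 for LEF1 against T/BraKO (8.16%, 5.55%, 4.80%, 5.41% and 4.45% of all loci). Leaving out 1 library gave from 0 to 2, 0 to 1 and 0 to 3 loci for the SOX2 comparisons (CHIR, CdxKO, T/BraKO), 0 to 2 and 2 to 4 for β-catenin (CdxKO, T/BraKO) and 0 to 1 for each of LEF1. The 4 came without β-catenin WT replicate 1 and the 3 without SOX2 T/BraKO replicate 2. With 1 library fewer, groups separate more easily, and the share of all loci was not computed for these counts.

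Regions in 3 of 3 against 0 of 3 libraries numbered 4 with the full lists for SOX2 against CdxKO (0 in the main comparison), 2 for β-catenin against CdxKO (0), 1 against T/BraKO (3), and 2 and 1 for LEF1 against CdxKO and T/BraKO (0 each), beside 0.198%, 0.160%, 0.169%, 0.276% and 0.254% of all regions. With the 5000 best peaks they numbered 3 for SOX2 with against without CHIR (5), 1 for β-catenin against CdxKO and 0 against T/BraKO (7.20%, 3.06% and 4.73% of all regions). Leaving out 1 library gave from 5 to 8, 0 to 2 and 1 to 3 for SOX2, 1 to 3 and 3 to 5 for β-catenin and 0 to 1 for each of LEF1. The 8 came without SOX2 noCHIR replicate 3 and the 5 without β-catenin WT replicate 2. With 1 library fewer the pattern is easier to meet, and the share of all regions was not computed for these counts.

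Peaks summed over the 9 loci, as group means for the 20000 best, the full lists and the 5000 best, were 16.3, 145 and 6.33 for SOX2 WT with CHIR, 19, 77.3 and 5 without, 17, 73.3 and 5.67 in CdxKO and 20, 67 and 6.33 in T/BraKO. For β-catenin they were 27.3, 95 and 12.3 in WT, 25.3, 58 and 8.67 in CdxKO and 34, 65.3 and 12.7 in T/BraKO, and for LEF1 8.67, 118 and 2, then 10.7, 136 and 3.67, then 9, 135 and 2.33.

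Limma calls at the 9 loci numbered from 0 to 2 for SOX2 with against without CHIR when 1 library was left out and 0 in each of the other comparisons. The share of all regions was not computed for these calls. The far upstream Msx1 difference was −1.44 with quantile normalisation, −2.00 without centring, −1.53 with a −log10 q of at least 3 and −1.55 with the replicate block, and it ranged from −1.86 to −1.32 without 1 library. It lost its call without SOX2 WT CHIR replicate 2 (−1.32, limma adjusted p = 0.0579). The labels do not say whether same-numbered libraries were made together, and the main fit did not pair them. Correlations of their deviations ranged from −0.121 to 0.1125, which does not settle whether they were paired. The block left 1 member call for SOX2 with against without CHIR while the calls over all regions went from 488 to 543. The cause of these changes was not tested. List length and the unknown depth limit every count of peaks.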
